A study of Homo sapiens with 27 samples.

Results

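Parental LIM1215 cells were compared with parental SW48 cells, a pair of established human colorectal cancer lines. The comparison rests on 6 of the 27 arrays of the series, chosen by their titles: 3 of LIM1215 cells (replicates 1 to 3) and 3 of SW48 cells (replicates 1 to 3), none of them exposed to the challenge that the study applied. Transcripts were measured with Affymetrix arrays of the whole-transcript kind, hybridised in 1 colour, which give 1 brightness value per probe set and array. In the wider study the parental cells of 3 lines were challenged for 20 cycles with cetuximab, an antibody against the epidermal growth factor receptor (EGFR), and with NK-CD16 cells, a natural killer population bearing the antibody receptor CD16; survivors are called resistant, and withdrawal cells are resistant cells grown for 20 further cycles untreated. LIM1215 medium was RPMI with serum, hydrocortisone (1 ug per ml) and insulin (1 ug per ml), whereas SW48 medium was RPMI with serum and neither supplement, so the line and its medium cannot be told apart. Per the labels, each parental line was cultured from a single clone, which limits each line here to 1 clone. The labels do not say that replicates came from separate cultures, so p-values measure the spread between these samples, which may be technical. The comparison gives the starting state of the cells from which the resistant and withdrawal cells were derived.

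EGFR is a receptor tyrosine kinase that binds EGF-family ligands and signals through the RAS, RAF, MEK and ERK kinases; ERK then raises transcription of early-response factors and of inhibitors that feed back on the pathway. Cetuximab blocks ligand binding and also marks the cell for natural killer cells, which weigh activating ligands such as MICA and the ULBP proteins against inhibitory HLA class I molecules. Colorectal cancer lines keep varying parts of the colon's own programs: the brush border of absorptive cells, the mucus of goblet cells, and the WNT-driven program of crypt stem cells.

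The deposited values differ in scale between the lines. The median over transcript probe sets was 7.11 to 7.19 on the LIM1215 arrays and 5.75 to 5.80 on the SW48 arrays, and the quartiles shifted likewise, so the 6 arrays were quantile-normalized together before any test. All levels below are normalized log2 values, and all differences are LIM1215 minus SW48 on the log2 scale; the base of the logarithm was read from the range of the values. Background was set for each line at the 95th percentile of the negative control probe sets, which was 6.44 to 6.85 on LIM1215 arrays and 7.23 to 7.61 on SW48 arrays. Of 12 epithelial markers, 12 lay above background in LIM1215 cells and 7 in SW48 cells, in which GPA33, VIL1, CDH17, LGALS4 and ELF3 were near background while EPCAM, CDH1, KRT8 and CDX2 were not. Of 20 NK and leukocyte markers 1 lay above background in each line (IL2RG in LIM1215 and PTPRC in SW48), and of 10 fibroblast and endothelial markers 1 in LIM1215 and 0 in SW48. On a longer list of 39 NK and leukocyte genes, 34 were near background in both lines, while LYZ (lysozyme, also made by secretory gut cells), the T-box factor gene EOMES and the lysosomal gene CD68 were above it in LIM1215 only, by at least 1.13-fold, 1.4-fold and 10.4-fold over SW48; their source was not tested. Pearson's r across genes, which are not independent replicates, was 0.9974 between LIM1215 replicates 1 and 2, 0.9871 and 0.9872 between each of them and replicate 3, 0.9947 to 0.9950 among SW48 replicates, and 0.8875 to 0.8952 between the lines. LIM1215 replicate 3 stood apart: 1076 of the 9281 genes above background in LIM1215 lay 2-fold or more from the mean of the other arrays, against 207 and 210 genes for replicates 1 and 2. Results that rest on it are given with and without it.

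A majority of genes differed between the lines. Of the 17687 genes tested with limma, 9863 passed at a Benjamini-Hochberg adjusted p under 0.05, which is 55.8% of all genes; 4681 (26.5%) were higher and 5182 (29.3%) lower in LIM1215. The median absolute difference was 0.67 over all genes and 1.00 over the 9820 genes above background in at least 1 line. For 11427 genes (64.6%) the 3 arrays of a line lay entirely beyond the 3 of the other. With so many calls, 3011 of them of genes near background in both lines, a size rule added after the data were seen is used for the gene groups below: a gene counts when it passed the test, differed 2-fold or more and lay above background in the brighter line. By this rule 2455 genes (13.9%) were higher and 2399 genes (13.6%) lower in LIM1215. Each list count below is to be read beside these shares. Among the 9820 genes above background in at least 1 line, 4854 counted, so lists of expressed genes hold more counted genes. The split rests on quantile normalization: of genes called at 2-fold or more, 3135 were higher and 3262 lower with it, against 2706 and 5356 when the arrays were only centred on their medians. Where 1 line is near background a fold is given as a lower bound ("at least"), and a fitted difference, which is no bound, only to rank genes or to set replicates and states side by side. Differences of 8 or more log2 units were seen in 89 genes higher and 36 genes lower, and 1139 genes were above background in LIM1215 only, against 539 in SW48 only. Under the size rule 4639 genes counted with the same sign with and without LIM1215 replicate 3.

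**Figure D1:**
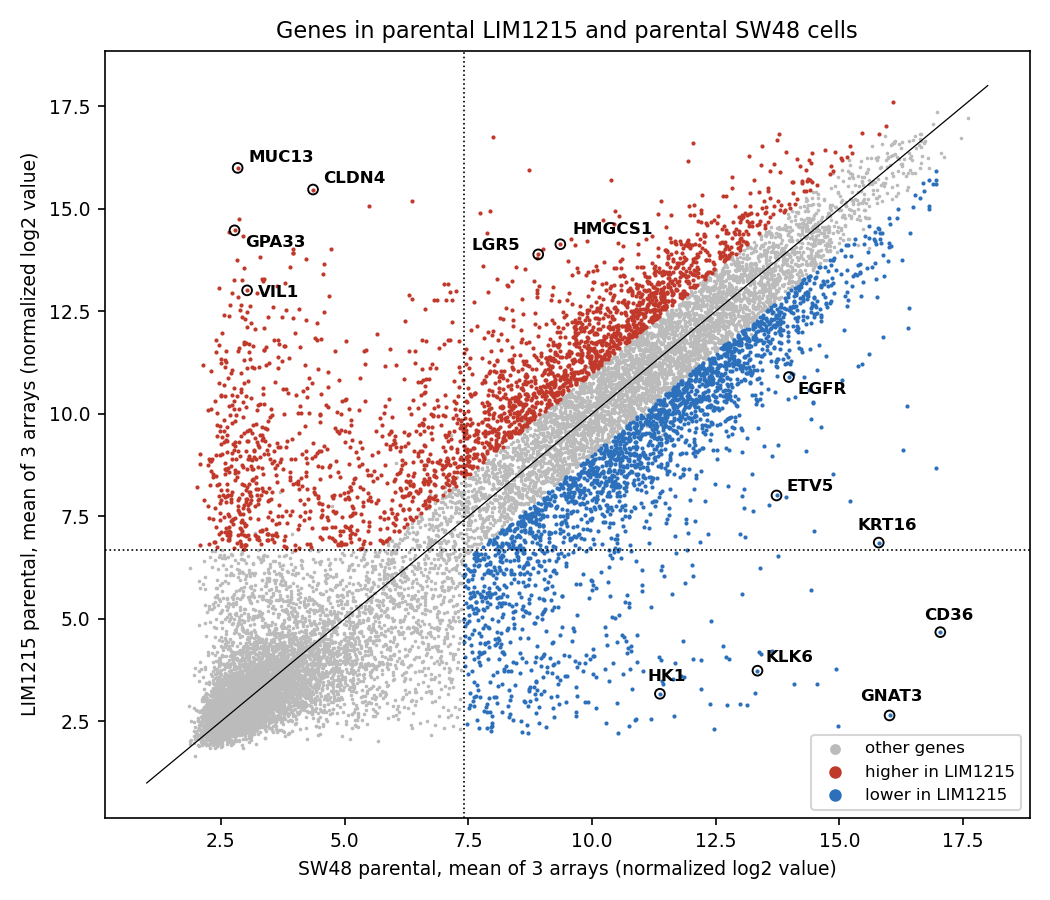
Mean normalized log2 value of each gene in parental LIM1215 cells (vertical axis, 3 arrays) and parental SW48 cells (horizontal axis, 3 arrays); red and blue points passed the size rule, dotted lines mark each line's background, and the diagonal marks equal levels. A column of red points at upper left and a row of blue points at lower right are genes above background in 1 line and near background in the other; MUC13 and GNAT3 lie at the ends.

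EGFR was lower in LIM1215 cells. Its normalized log2 value was 10.94, 10.86 and 10.88 in LIM1215 replicates 1 to 3, against 13.82, 14.04 and 14.08 in SW48 replicates 1 to 3. The groups do not overlap, and EGFR was 8.49-fold lower in LIM1215 (limma adjusted p = 2.03e-06, SE 0.143 on the log2 scale), in a test in which 55.8% of genes passed. ERBB3, the receptor for neuregulins, differed the other way, at 13.18, 13.19 and 14.28 in LIM1215 and 12.75, 12.51 and 12.68 in SW48 (1.86-fold, limma adjusted p = 0.0371). LIM1215 replicate 3 lay furthest above SW48, so that fold rests in part on this array. ERBB4 was near background in both lines.

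The ligands of EGFR did not follow 1 direction. TGFA, which encodes transforming growth factor alpha, was at 11.52, 11.43 and 11.54 in LIM1215 and 9.58, 9.48 and 9.69 in SW48, a 3.76-fold excess in LIM1215 (adjusted p = 2.08e-05). BTC (betacellulin) was 2.28-fold lower in LIM1215 (adjusted p = 0.0025). EREG (epiregulin) and HBEGF (heparin-binding EGF) did not pass with all arrays; in both, LIM1215 replicate 3 read above the other 2 replicates. EREG was at 12.78, 12.92 and 15.31 in LIM1215 and 14.63, 14.61 and 14.58 in SW48. Without that replicate EREG differed by -1.80 (adjusted p = 4.5e-05) and HBEGF by -0.90 (adjusted p = 0.0026). EGF, EPGN, NRG1 and NRG4 were near background in both lines.

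Genes that ERK signalling is known to raise were mostly lower in LIM1215. Of 22 listed genes of ERK feedback and output, 2 were higher and 10 lower by the size rule, and 3 higher and 14 lower by the test alone; their median difference was -1.37, beside -0.05 over all genes. ETV5, an ETS-family transcription factor, was at 7.0, 7.20 and 9.83 in LIM1215 and at 13.72, 13.66 and 13.82 in SW48 (52.8-fold lower, adjusted p = 0.000271). Replicate 3 lay nearer to SW48 than the other LIM1215 arrays did, and without it the difference was -6.69. PHLDA1, a pleckstrin-domain feedback gene, read 12.23, 12.26 and 13.25 against 16.36, 16.35 and 16.50 in SW48 (14.2-fold lower). FOSL1, a subunit of the AP-1 factor, was 9.95-fold lower and DUSP4, a phosphatase that inactivates ERK, 8.18-fold lower, with adjusted p of 2.52e-06 and 4.31e-06. The early-response factor EGR1 was 4.05-fold lower, the ERK phosphatase DUSP6 2.59-fold lower, and the RAF inhibitors SPRED1 and SPRED2 2.58-fold and 2.4-fold lower. Against this direction stood LIF, a cytokine of the IL-6 family, at 11.64, 11.49 and 12.97 in LIM1215 and 8.14, 6.90 and 7.64 in SW48 (22.2-fold higher), and SPRY2, an inhibitor of receptor tyrosine kinase signalling (4.13-fold higher). For LIF, SW48 replicate 2 lay below its own background of 7.37, so that fold is approximate. ETV4 (difference 0.01) and SPRY4 (-0.82) did not pass.

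**Figure D2:**
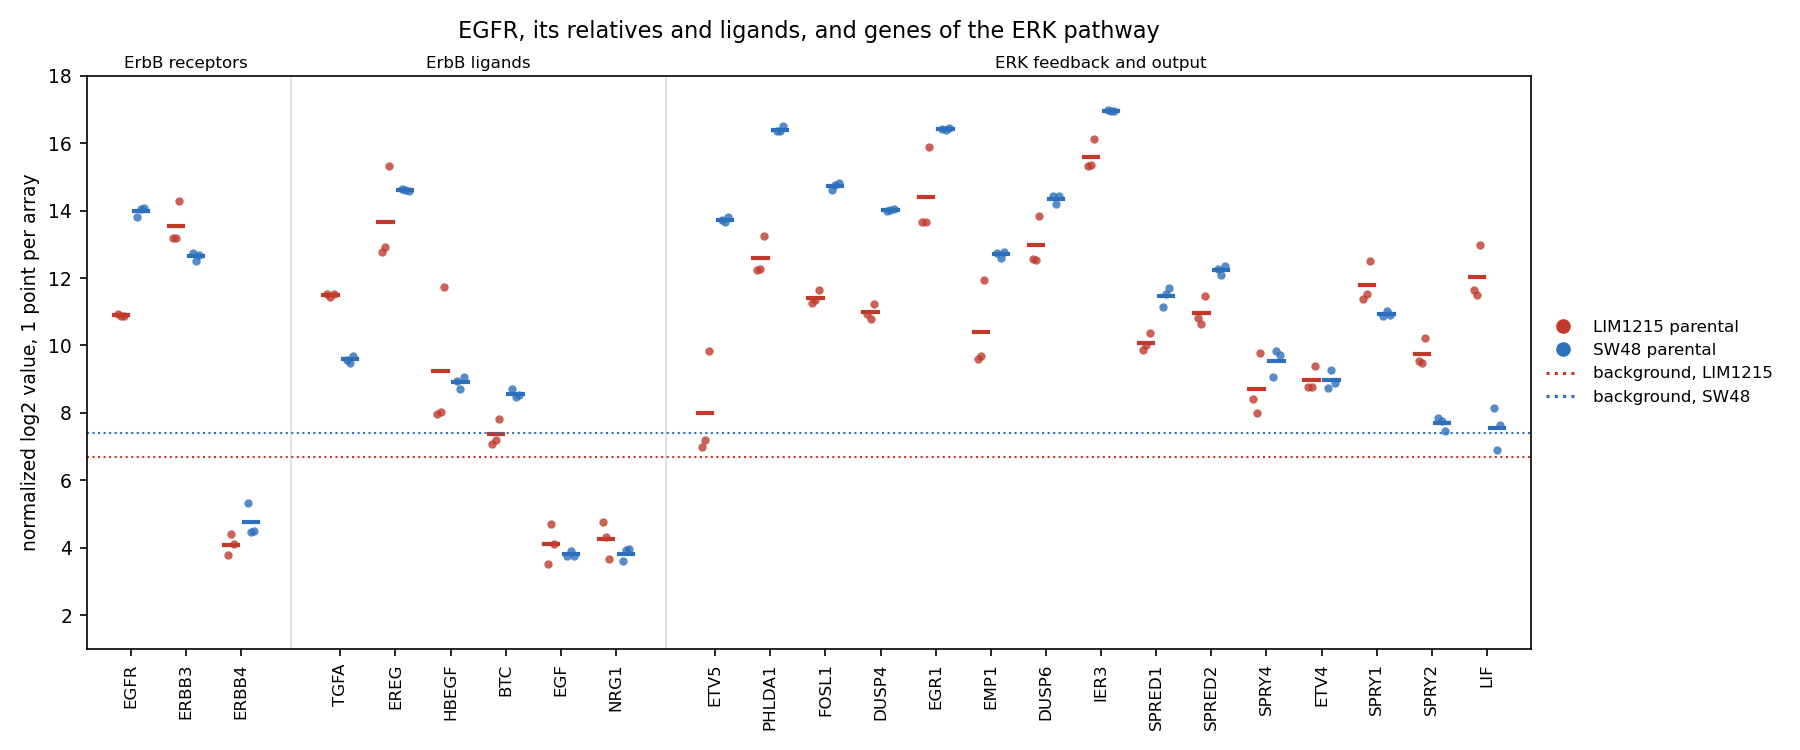
Normalized log2 values of ErbB receptors, ErbB ligands and genes of ERK feedback and output, 1 point per array, with LIM1215 parental cells (red) left of SW48 parental cells (blue), bars at the means of 3 arrays and dotted lines at each line's background. EGFR, ETV5, PHLDA1, FOSL1 and DUSP4 sit lower in LIM1215 without overlap, while TGFA, SPRY2 and LIF sit higher.

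Other receptor tyrosine kinases were also more often lower than higher in LIM1215: of 22 listed, 1 was higher and 7 lower by the size rule. The largest among those above background in both lines was ROR1, a WNT5A receptor, at 8.23, 8.24 and 8.04 in LIM1215 and 13.06, 13.18 and 12.97 in SW48 (29.8-fold lower, adjusted p = 2.07e-07). Its relative ROR2 and the GAS6 receptor AXL were near background in LIM1215 and at least 2.81-fold and 3.63-fold lower there. IGF1R, the receptor for insulin-like growth factors, was 8.19-fold lower in LIM1215.

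The largest differences in favour of LIM1215 were of genes near background in SW48, so that their folds are lower bounds, set against the background of the SW48 arrays. MUC13, a transmembrane mucin of the gut surface, was at 15.90, 15.84 and 16.24 in LIM1215 and at 3.54, 2.31 and 2.66 in SW48, a difference of 13.16 (SE 0.313, adjusted p = 8.81e-08), at least 385-fold. It was followed by the mitochondrial co-chaperone gene DNAJC15 (11.88), the neurofilament gene NEFL (11.77), GPA33, a surface antigen of intestinal epithelium (11.70), and AGR2, a disulfide isomerase of secretory cells (11.38). CLDN4, a tight-junction claudin, differed by 11.11 (at least 267-fold). BCAT1, an enzyme of branched-chain amino acids, differed by 10.60, GPX2, the glutathione peroxidase of the gut, by 10.60 and GSTM3, a glutathione transferase, by 10.23. NETO2, LAPTM4B, THBS1 (thrombospondin) and EID1 complete the 15 with HBA1 and HBA2. The alpha-globin genes HBA1 and HBA2 differed by 10.54 and 10.94; their transcripts are nearly identical and the probe sets cannot be told apart.

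The genes furthest the other way were bright in SW48 and near background in LIM1215. GNAT3, the G protein of taste receptor cells, was at 2.34, 2.96 and 2.64 in LIM1215 and 16.01, 16 and 16.04 in SW48, a difference of -13.37 (SE 0.184, adjusted p = 2.59e-08), at least 643-fold lower. The neurotensin receptor NTSR1 differed by -12.59 and the fatty acid receptor CD36 by -12.37. Behind them came the histone genes H3C7 (-11.15) and H3C8 (-10.10), whose sequences are near-identical to other H3 genes and which are uncertain for that reason, the homing receptor GPR15 (-11.14), the phosphodiesterase PDE4B (-10.68) and the hyaluronan synthase HAS2 (-10.15). SLC43A3, NIBAN1, CREB5, the kallikrein KLK6, the early-response factor EGR3, the ectodysplasin receptor EDAR and KCTD15 differed by -10.23 to -9.27. For NIBAN1 and EGR3, LIM1215 replicate 3 read 4.30 and 4.53, above 2.21 to 2.53 in the other LIM1215 arrays, and all 6 of these values were near background.

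Many genes of gut epithelial identity were higher in LIM1215, in part from near background in SW48. Among 25 transcription factors of colon and gut, 7 were higher and 4 lower by the size rule. ELF3, an epithelial ETS factor, read 11.55, 11.29 and 11.85 in LIM1215 and 3.34, 3.40 and 3.37 in SW48 (at least 17.9-fold, adjusted p = 6.6e-08). The caudal homeobox factor CDX1, the forkhead factor FOXA2 and the zinc finger factor GATA6 were at least 7.16-fold, 3.76-fold and 41-fold higher, each near background in SW48. CDX2, the relative of CDX1 that sets intestinal fate, was well above background in both lines, at 14.29, 14.23 and 14.45 in LIM1215 and 13.33, 13.45 and 13.49 in SW48 (1.86-fold, adjusted p = 0.00121). Lower in LIM1215 were MEIS2, a homeobox cofactor (at least 13.8-fold), and KLF4, a factor of differentiating epithelium (23.6-fold lower).

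Goblet and brush-border genes showed the same direction. Of 35 genes of mucus and secretion, 11 were higher and 0 lower by the size rule (20 and 1 by the test alone), and 24 were near background in both lines. After MUC13 and AGR2 the largest were TFF3, the trefoil peptide of goblet cells, at 11.68, 11.62 and 11.30 in LIM1215 and 2.84, 3.01 and 2.70 in SW48 (at least 17.5-fold), and the gastric mucin MUC6 (at least 3.65-fold). Of 35 enterocyte and brush-border genes, 9 were higher and 2 lower. VIL1, which bundles actin in microvilli, was at 13.21, 13.13 and 12.69 in LIM1215 and 2.89, 3.32 and 2.88 in SW48 (at least 48.7-fold). EPS8L3, ALPP and the microvillus cadherin CDHR5 were at least 30.3-fold, 5.04-fold and 8.36-fold higher. The peptidase gene DPP4 went the other way, at 7.58, 7.47 and 8.62 in LIM1215 and 12.19, 11.78 and 12 in SW48 (17.1-fold lower).

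Surface antigens used to recognise gut tumours followed. Of 23 listed, 12 were higher and 2 lower by the size rule. The intestinal cadherin CDH17 was at 13.47, 13.66 and 14.62 in LIM1215 and 3.46, 4.01 and 4.40 in SW48 (at least 91.3-fold), and CEACAM1, a carcinoembryonic-antigen relative, was at least 6.59-fold higher. PROM1, the surface protein CD133, was the opposite case, at 4.13, 4.6 and 3.81 in LIM1215 and 13.36, 13.34 and 13.45 in SW48 (at least 104-fold lower).

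Junction genes, keratins and secreted proteases divided between the lines. Of 40 junction and claudin genes, 10 were higher and 7 lower. CLDN1 was at 15.26, 15.27 and 15.04 in LIM1215 and 6.81, 5.97 and 6.32 in SW48 (at least 221-fold), and the scaffold gene TJP3 was at least 6.17-fold higher. ESRP1, a splicing regulator of epithelial cells, was 73.4-fold lower in LIM1215, at 9.45, 9.81 and 11.28 against 16.31, 16.41 and 16.41 in SW48. E-cadherin (CDH1) differed by -0.11 (adjusted p = 0.575).

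Of 14 keratins, 3 were higher and 2 lower by the size rule. KRT18 and KRT19, of simple epithelium, were 7.6-fold and 4.11-fold higher in LIM1215. KRT16 and KRT14, of stratified epithelium, were lower: KRT16 read 6.71, 7.06 and 6.81 in LIM1215 and 15.73, 15.79 and 15.88 in SW48 (490-fold lower, adjusted p = 2.59e-08), and KRT14 was at least 18.3-fold lower. For KRT16 the LIM1215 mean was only just above background, and replicate 1 lay below its own background of 6.78, so that fold is approximate. Of 30 kallikreins and other secreted serine proteases, 7 were higher and 4 lower, the lower ones all kallikreins. TMPRSS2, a membrane protease, was at least 46.6-fold higher in LIM1215, and the trypsinogens PRSS3 and PRSS2, which are similar in sequence, at least 29.4-fold and 8.14-fold higher. The kallikrein gene KLK6 was at 3.88, 3.83 and 3.51 in LIM1215 and 13.23, 13.33 and 13.48 in SW48 (at least 101-fold lower). KLK7 was 145-fold lower and KLK5 at least 4.07-fold lower. Of 29 annexins and S100 proteins, 10 were higher and 5 lower, among them S100A2 (at least 81.3-fold lower).

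**Figure D3:**
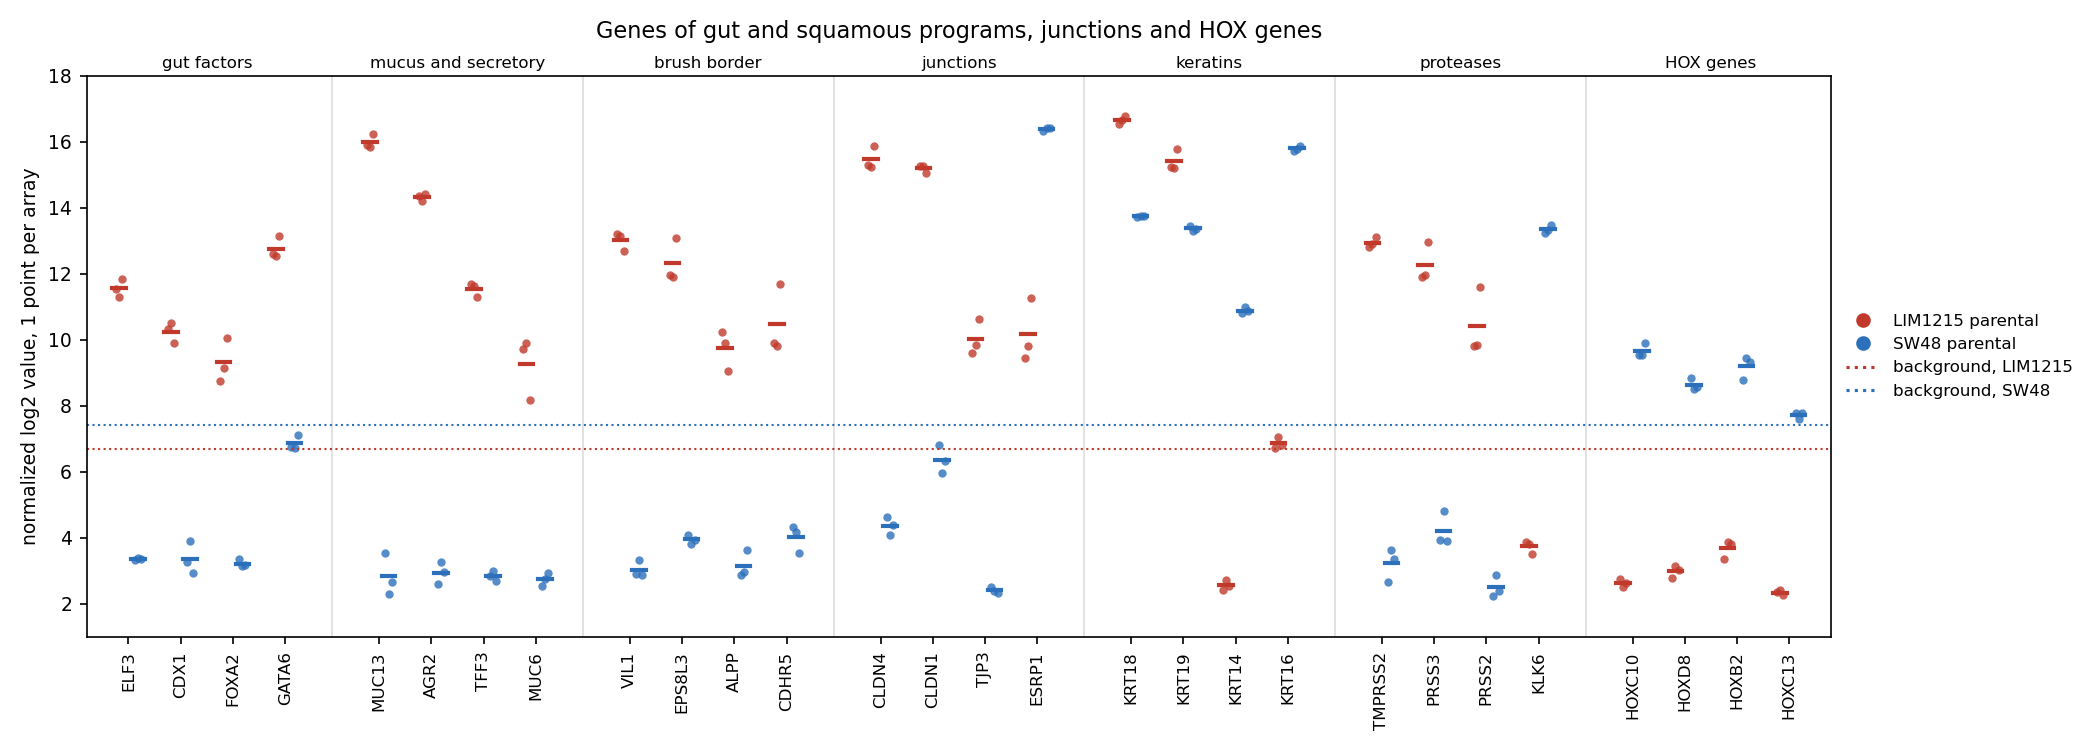
Normalized log2 values of 4 genes each from the lists of gut factors, mucus and secretion, brush border, junctions, keratins, proteases and HOX genes, 1 point per array, with LIM1215 parental cells (red) left of SW48 parental cells (blue), bars at means and dotted lines at each line's background. Of the genes drawn, the gut factors (ELF3, CDX1, FOXA2, GATA6), mucus and brush border genes average above background in LIM1215 only, and KRT14, KLK6 and the HOX genes in SW48 only.

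Mesenchymal and matrix genes were for the most part near background in both lines (29 of 43), and by the size rule 3 were higher and 6 lower in LIM1215. The homeobox gene PRRX1 was at 3.77, 4.08 and 4.38 in LIM1215 and 11.47, 11.27 and 11.31 in SW48 (at least 25.3-fold lower), and S100A4 was at least 27.5-fold lower. THBS1 was at 13.52, 13.68 and 14.83 against 4.32, 3.28 and 4.24 in SW48 (at least 97.3-fold higher), and the metalloprotease inhibitor TIMP3 at least 4.09-fold higher. Of 25 integrin and laminin genes 8 were higher and 3 lower, led by the focal-adhesion gene TNS4 (at least 82.3-fold) and the tetraspanin-like TM4SF1 (at least 17.5-fold).

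Genes of the WNT pathway moved both ways. Of 35 pathway genes and targets, 12 were higher and 7 lower by the size rule. Some markers of crypt stem cells were higher in LIM1215. LGR5, a receptor for R-spondins, was at 14.20, 14.12 and 13.33 in LIM1215 and 8.72, 9.25 and 8.78 in SW48 (31.4-fold, adjusted p = 4.87e-06). The stem-cell factor ASCL2 and the matrix gene SMOC2 were at least 9.55-fold and 9.4-fold higher. SOX9 and MYC of the same list were lower, with differences of -1.75 and -1.23 (limma adjusted p = 0.00287 and 0.000239). The homeobox gene PROX1 and the nuclear effector LEF1 were at least 2.94-fold and 3.74-fold higher. Feedback genes and antagonists of the pathway differed in both directions. Higher were the antagonist DKK1 (at least 5.92-fold) and the feedback gene NKD1 (2.24-fold), and DKK4 and APCDD1 passed the test in the same direction but were near background in both lines. Lower were AXIN2, a scaffold of the beta-catenin destruction complex, by 2.69-fold, the ubiquitin ligases RNF43 and ZNRF3 by 4.17-fold and 2.23-fold, and the WNT deacylase NOTUM by 5.01-fold. Among 32 ligands and receptors, WNT11 was at least 3.6-fold higher and the receptor FZD4 at least 8.03-fold lower. DLL1, a Notch ligand, was at least 5.04-fold lower.

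HOX genes, which mark position along the body axis, were more often lower. Of 23 listed, 1 was higher and 7 lower by the size rule, with 14 near background in both lines. HOXC10 was at 2.76, 2.50 and 2.63 in LIM1215 and 9.55, 9.55 and 9.91 in SW48 (at least 7.9-fold lower, adjusted p = 8.45e-08). HOXD8, HOXB2 and HOXC13 were at least 3.87-fold, 5.68-fold and 2.05-fold lower, and HOXB9 18.1-fold lower. HOXB7, the gene that differed the other way, was 3.42-fold higher. In the TGF-beta and BMP pathway 6 of 30 genes were higher and 7 lower: TGFBI, a matrix protein named for its induction by TGF-beta, was at least 15-fold higher, while the BMP effector SMAD9 and the decoy receptor BAMBI were lower by at least 14.5-fold and by 19.5-fold.

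HLA class I presentation was higher in LIM1215. Of 17 genes, 8 were higher and 1 lower by the size rule (11 and 1 by the test), with the same 8 and 1 as counts without replicate 3. B2M, the light chain of every class I molecule, was at 15.84, 15.90 and 16.76 in LIM1215 and 11.90, 11.98 and 11.93 in SW48 (18.8-fold, adjusted p = 8.1e-06; difference 4.05 without replicate 3). The immunoproteasome subunits PSMB9, PSMB8 and PSMB10 were higher by at least 18.2-fold, by 5.5-fold and by at least 4.52-fold, the peptide transporter subunit TAP1 by at least 5.51-fold, and the loading factor TAPBP by 4.19-fold. HLA-C was 3.53-fold higher and HLA-G 3.76-fold higher; the HLA genes are polymorphic and alike in sequence, which probe sets may read unequally. HLA-E, the ligand of the inhibitory NK receptor NKG2A, was at 12.52, 12.45 and 14.20 in LIM1215 and 12.41, 12.27 and 12.05 in SW48, and did not pass (0.81, adjusted p = 0.161). ERAP2, a peptide-trimming protease, was the one lower gene (at least 1.82-fold). The chaperones CALR and PDIA3 passed with differences of 0.49 and 0.63 that change sign when the arrays are only centred on their medians. Of 13 class II genes, 10 were near background in both lines, and HLA-DRB1 and HLA-DMA were higher in LIM1215 by at least 1.84-fold and 2.51-fold.

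Genes of the type I interferon response were higher in LIM1215, by an amount that depended on replicate 3. Of 40 listed genes, 20 were higher and 0 lower by the size rule and 22 and 0 by the test; the median difference was 3.06. Without replicate 3 the counts by the size rule were 24 and 1 and the median 1.89. In a fit of all 27 arrays, in which all groups share 1 estimate of the spread, 34 of the 40 passed as higher, and when dim genes were filtered out first, 12 did. In replicate 3 the median listed gene lay 3.65 log2 units above the mean of replicates 1 and 2, and 36 of the 40 were 2-fold or more above it. The 10 genes that departed most in that array among all genes were IFI27, OAS2, IFI44L, IFIT1, MX2, IFIT3, XAF1, IGFBP1, RSAD2 and OASL, and all but IGFBP1 are on this list.

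Several members were far above SW48 on every LIM1215 array. IFI6, an interferon-induced mitochondrial protein, was at 12.39, 12.41 and 16.15 in LIM1215 and 4.13, 4.78 and 4.82 in SW48 (at least 75.9-fold; fitted difference 9.07, or 7.85 without replicate 3). OAS1, which makes the messenger 2-5A on sensing double-stranded RNA, was at 10.96, 11.11 and 14.11 against 2.75, 3.29 and 3.52 in SW48. IFITM1, a membrane protein that blocks viral entry, was 429-fold higher, at 16.50, 16.40 and 17.34 in LIM1215 and 7.82, 8.55 and 7.63 in SW48, and IFITM2 128-fold higher. Others read far higher on replicate 3 than on replicates 1 and 2. IFIT1, which binds viral RNA caps, was at 5.52, 6.15 and 12.64 in LIM1215 and 3.98, 3.36 and 3.71 in SW48. It did not pass with all arrays (limma adjusted p = 0.0577). Without replicate 3 it differed by 2.12 (limma adjusted p = 0.00051), with both lines then near background. IFI44L was at 2.98, 2.67 and 9.71 against 2.68, 2.67 and 2.64 in SW48 (adjusted p = 0.255), and OAS3 at 10.46, 10.08 and 12.98 against 9.85, 10.19 and 10.25 in SW48 (adjusted p = 0.221). In the fit of all 27 arrays IFIT1 and IFI44L passed (limma adjusted p = 0.000471 and 0.0373).

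The response is known to act through a shared element, the interferon-stimulated response element, so promoters of some listed genes are shown. They are of 3 genes that exceeded SW48 on every LIM1215 array (IFI6, IFITM1, EPSTI1) and 3 in which replicates 1 and 2 were closer to SW48 (DDX60, ISG15, IFIT1). IFIT1 also exceeded SW48 on every LIM1215 array, so these sets are not sharply apart. Capitals mark each match to the motif GAAANNGAA, searched on both strands in the 250 bases before each RefSeq start; the sequences, 5′ to 3′ on the gene's strand and upstream of the start, are from RefSeq on GRCh38.p14.
IFI6: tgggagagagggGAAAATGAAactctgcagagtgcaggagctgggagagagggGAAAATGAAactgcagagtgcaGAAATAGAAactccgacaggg
IFITM1: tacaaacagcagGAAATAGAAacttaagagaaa
EPSTI1: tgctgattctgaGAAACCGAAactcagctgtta
DDX60: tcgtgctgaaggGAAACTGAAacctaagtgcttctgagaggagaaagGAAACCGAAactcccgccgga
ISG15: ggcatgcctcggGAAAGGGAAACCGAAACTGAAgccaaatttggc
IFIT1: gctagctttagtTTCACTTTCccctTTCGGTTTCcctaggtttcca
The IFI6 window is chr1:27672265-27672360 on the minus strand and holds 3 matches. The IFITM1 window is chr11:313988-314020 (plus) and the EPSTI1 window chr13:42992271-42992303 (minus), with 1 match each. The DDX60 window is chr4:168318785-168318852 (minus), with 2 matches, the ISG15 window chr1:1013372-1013416 (plus), with 3 overlapping matches, and the IFIT1 window chr10:89392496-89392541 (plus), with 2 matches that read on the other strand. The motif was present in 22 of the 32 listed genes that had a promoter entry and in 7.86% of the 14232 tested genes that had one, so that the motif is not confined to this list. Among the listed genes without a match was OAS1. Only genes with a match could be shown, so a match in both sets of shown genes was fixed in advance and does not compare them.

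**Figure D4:**
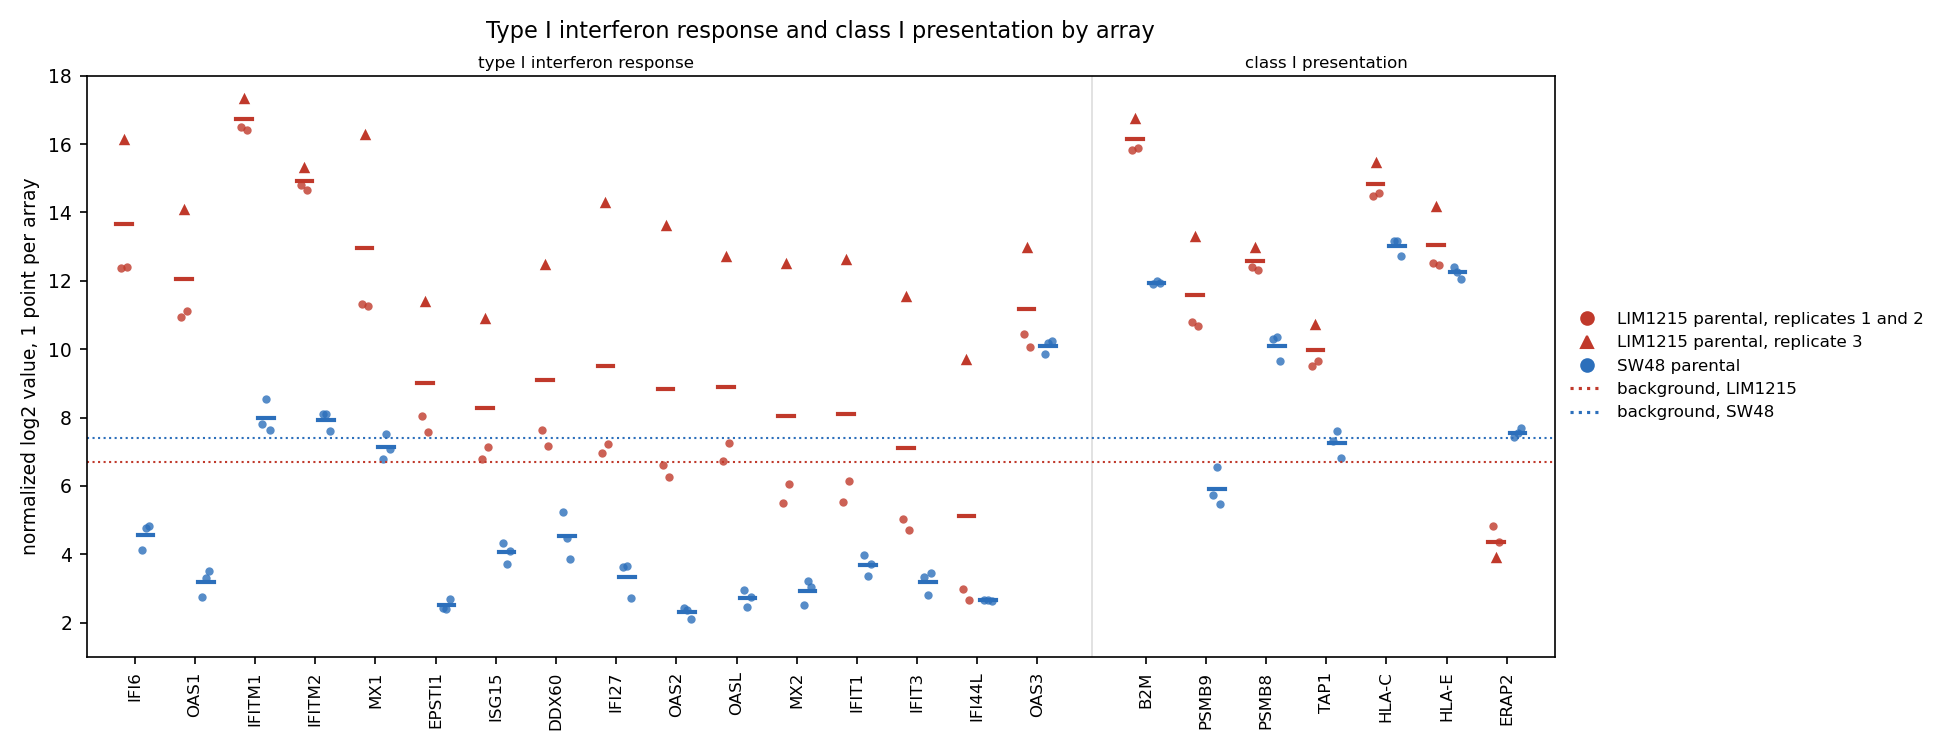
Normalized log2 values of 16 type I interferon genes and 7 class I presentation genes, with LIM1215 parental cells (red; replicate 3 as a triangle) left of SW48 parental cells (blue), bars at the means of 3 arrays and dotted lines at each line's background. The triangle lies far above the other LIM1215 points for OAS2, MX2, IFIT1, IFIT3 and IFI44L, while IFI6, OAS1, IFITM1 and IFITM2 exceed SW48 on every LIM1215 array.

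Of 27 genes of interferon receptors and signalling, 4 were higher and 3 lower by the size rule, and 3 and 3 without replicate 3, counts near the shares over all genes. STING1, the adaptor for cytosolic DNA, was at 12.07, 11.99 and 12.21 in LIM1215 and 3.52, 3.24 and 3.37 in SW48 (at least 25.8-fold, adjusted p = 2.59e-08). STAT3 was 5.93-fold higher and the kinase gene JAK2 at least 4.04-fold lower. Of 21 genes of the interferon gamma response 5 were higher and 2 lower, with and without replicate 3. IRF8 of that list, a transcription factor better known from immune cells, was at 10.92, 11.02 and 11.45 against 2.75, 2.40 and 2.63 in SW48 (at least 13.2-fold). Of 17 inflammatory caspases and gasdermins, 4 were higher and 1 lower, with the pore-forming gasdermin GSDMB at least 15-fold higher.

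Chemokines that draw neutrophils and T cells were higher in LIM1215. Of 28 chemokine and cytokine genes, 13 were higher and 1 lower by the size rule, and 12 of the list lay above background in LIM1215 only. CXCL1 was at 13.11, 13 and 13.77 in LIM1215 and 3.06, 3.25 and 3.68 in SW48 (at least 59.4-fold), and CCL20, a ligand of CCR6, at 10.99, 11.21 and 13.22 against 2.22, 2.71 and 2.30. CXCL8 and CXCL5 were at least 13.3-fold and 14.7-fold higher. Among NF-kappaB regulators the kinase gene IKBKE was at least 10.3-fold higher and TNFAIP2 at least 5.68-fold lower.

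Ligands that natural killer cells read were divided. Of 20 activating ligands and adhesion molecules, 13 of them above background, 4 were higher and 5 lower by the size rule, and 8 and 7 by the test. Over all genes the shares by the size rule were 13.9% and 13.6%, and 4854 of the 9820 genes above background counted, so a division of this kind is not particular to these ligands. ICAM1, which binds the integrin LFA-1, was at 9.75, 9.78 and 10.02 in LIM1215 and 5.33, 4.78 and 5.26 in SW48 (at least 5.45-fold). NECTIN2, a ligand of DNAM-1, was 8.63-fold higher, the NKG2D ligand MICB at least 2.55-fold higher and the CD2 ligand CD58 at least 2.46-fold higher. Lower in LIM1215 were NCR3LG1 (B7-H6, the NKp30 ligand, 9.23-fold), the NKG2D ligands ULBP3 (7.82-fold) and RAET1L (4.83-fold), and PVR, the other DNAM-1 ligand (2.6-fold). ULBP1 was at 6.85, 6.30 and 10.47 in LIM1215 and 11.26, 11.20 and 11.28 in SW48, 10.3-fold lower (adjusted p = 0.0203) with all arrays; without replicate 3 the LIM1215 mean was near background, and no exact fold is given. MICA (-0.32) and ULBP2 (0.37) did not pass.

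Of 15 inhibitory ligands 5 were higher and 1 lower. Besides CEACAM1, LGALS9 (galectin 9) was at least 4.69-fold and CD47, the signal that restrains phagocytes, 9.27-fold higher. NECTIN1 was 49.7-fold lower, at 7.89, 7.53 and 7.47 in LIM1215 and 13.12, 13.27 and 13.40 in SW48.

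Apoptosis genes differed in both directions. Of 25 death-receptor and apoptosis genes, 8 were higher and 5 lower. BCL2, which guards mitochondria against apoptosis, was at 4.63, 4.25 and 3.97 in LIM1215 and 10.59, 10.65 and 10.94 in SW48 (at least 16.4-fold lower, adjusted p = 3.08e-07). BIK, a BH3-only gene that opposes it, was at 13.47, 13.25 and 13.15 against 8.42, 7.86 and 7.97 in SW48 (37-fold higher), and CASP10, a caspase of death receptors, was at least 1.82-fold higher. Of 15 genes of mismatch repair and DNA damage, 0 were higher and 5 lower by the size rule, among them ATM (7.29-fold), PMS2 (6.44-fold), MLH3 (4.4-fold) and MSH3 (3.32-fold); without replicate 3 these counts were 1 and 4.

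Sterol synthesis was higher in LIM1215 almost throughout. Of 20 genes of cholesterol and fatty acid synthesis, all above background in both lines, 16 were higher and 1 lower by the size rule, with a median difference of 1.56 (1.6 without replicate 3). HMGCS1, which makes HMG-CoA, was at 14.07, 14.12 and 14.21 in LIM1215 and 9.39, 9.28 and 9.42 in SW48 (27.3-fold, adjusted p = 1.8e-07). The isomerase IDI1 was 19.9-fold, the sterol sensor partner INSIG1 17.3-fold, MVD 11.9-fold, FADS2 11.6-fold, the sterol carrier STARD4 10.7-fold and SQLE 9.67-fold higher. SCD, the stearoyl-CoA desaturase, was the one gene lower, at 13.44, 13.43 and 15.60 in LIM1215 and 15.97, 15.98 and 16.09 in SW48 (3.62-fold, adjusted p = 0.0221; difference -1.86, or -2.67 without replicate 3). Of the remaining genes, ELOVL6 passed with a difference of 0.85, ACACA passed in the lower direction, and PMVK did not pass.

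Genes of drug and xenobiotic metabolism were likewise mostly higher, 21 against 2 lower of 40. After GSTM3, the largest were the retinaldehyde dehydrogenase ALDH1A3 (at least 4.85-fold) and SULT1C2 and AKR1B15, both of which were higher still on replicate 3 (8.02, 7.85 and 10.25 for SULT1C2 against 3.01, 3.16 and 2.68 in SW48). Of 23 metallothionein and iron genes, 8 were higher and 0 lower: FTL, the ferritin light chain, by 8.6-fold and the copper oxidase HEPH by at least 13.9-fold.

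The supplements in LIM1215 medium, hydrocortisone and insulin, act through the glucocorticoid and insulin receptors, so genes of each pathway were listed. Of 31 listed genes of the glucocorticoid response, which include the receptor gene NR3C1, 2 were higher and 6 lower by the size rule. The test alone gave 7 and 10, and 14 did not pass. Over all genes the shares were 13.9% and 13.6% by the size rule and 26.5% and 29.3% by the test. Without replicate 3 the size rule gave 2 and 9 of the 31. The part of the medium in these counts was not tested. CRISPLD2 was at 5.68, 6.03 and 5.37 in LIM1215 and 14.40, 14.40 and 14.48 in SW48 (at least 214-fold lower), and KLF9, TFCP2L1 and the kinase gene SGK1 were at least 84.8-fold, 4.09-fold and 10.5-fold lower. SCNN1A, a subunit of the epithelial sodium channel, was 29-fold higher. TSC22D3, the glucocorticoid-induced leucine zipper, was at 8.66, 8.51 and 11.97 against 11.17, 11.03 and 11.12 in SW48; it did not pass (adjusted p = 0.196), and differed by -2.55 without replicate 3 (adjusted p = 1.3e-05). KLF9 also read higher on replicate 3, at 8.44, than on replicates 1 and 2, at 5.66 and 5.53.

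Of 27 insulin and IGF pathway genes, 5 were higher and 4 lower by the size rule with all arrays, and 5 and 8 without replicate 3. By the test alone 7 were higher and 7 lower. With all arrays these counts lay near the shares over all genes. Those were 13.9% and 13.6% by the size rule and 26.5% and 29.3% by the test. IRS1, the main docking protein of the insulin receptor, was at 5.35, 4.71 and 6.10 in LIM1215 and 11.27, 10.65 and 10.34 in SW48 (at least 16.8-fold lower), and IGFBP4 at least 5.72-fold lower. IGFBP2 was 12.2-fold higher. IGFBP1 was at 5.50, 5.78 and 11.54 in LIM1215 and 2.61, 3.05 and 2.91 in SW48, and passed with all arrays (adjusted p = 0.026), above background on replicate 3 alone.

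Genes of the amino acid stress response were more often lower than higher. Of 23 genes of amino acid and unfolded protein stress, 4 were higher and 9 lower by the size rule, and 2 and 11 without replicate 3. DDIT3 (CHOP) was at 4.27, 4.66 and 7.75 in LIM1215 and 10.35, 10.46 and 10.26 in SW48. DDIT4, an inhibitor of the growth kinase mTORC1, was at 10.17, 10.27 and 15.16 against 15.88, 15.90 and 15.88, 16.2-fold lower with all arrays (adjusted p = 0.0251) and different by -5.80 without replicate 3. The stress sensor ERN1 (IRE1 alpha) was 10.9-fold lower, while its paralog ERN2, known from gut mucosa, was at 10.81, 10.34 and 11.12 in LIM1215 and 3.11, 3.00 and 2.79 in SW48 (at least 10.2-fold higher).

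Hexokinase HK1, the entry enzyme of glycolysis, was at 2.89, 2.75 and 3.88 in LIM1215 and 11.36, 11.61 and 11.15 in SW48 (at least 25.8-fold lower); its paralog HK2 was above background in both lines and 2.77-fold lower. BNIP3, a hypoxia target that marks mitochondria for removal, was at least 31.1-fold higher, at 12.29, 12.50 and 12.30 against 3.47, 3.63 and 3.27. The hypoxia and glycolysis list as a whole had 6 of 21 genes in each direction, and 6 higher and 8 lower without replicate 3.

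Cell cycle genes differed in both directions, and less often than genes above background at large. Of 35 cell cycle and replication genes, 5 were higher and 5 lower by the size rule. Their median difference was 0.09, with a range from -1.52 (E2F2) to 2.55 (TYMS, thymidylate synthase). Those shares were close to the 13.9% and 13.6% of all genes, but 33 of the 35 lay above background. Of all 17687 genes, 9820 did so in at least 1 line, and 4854 of them counted. By the test alone 10 were higher and 6 lower and 19 did not pass, whereas 55.8% of all genes passed. Without replicate 3 the size rule gave 9 and 4. On replicate 3, TYMS and CDC20 read 14.04 and 13.82, below 15.02 and 14.65 on replicate 1. MKI67, the proliferation marker, was 2.2-fold lower (adjusted p = 0.00755). Of 13 ribosomal protein genes, 0 were higher and 1 lower by the size rule: RPLP1, at 15.33, 15.27 and 15.18 in LIM1215 and 16.66, 16.69 and 16.56 in SW48 (2.6-fold). Of 30 cancer-testis antigens, 29 were near background in both lines.

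Most of the line difference was also present in cells derived from each line. In a fit of the 18 LIM1215 and SW48 arrays, normalized together, the line difference was tested in the parental, resistant and withdrawal states; the parental arrays enter each test of a change in the difference. Of the 2455 genes higher in parental LIM1215 by the size rule, 2269 were also called higher in resistant cells and 2359 in withdrawal cells; of the 2399 lower genes, 2223 and 2270 were also called lower. Calls in the opposite direction numbered 40 and 31 in resistant cells and 2 and 6 in withdrawal cells. The line difference itself changed between the resistant and parental states in 2714 genes (15.3% of all genes) and between the withdrawal and parental states in 1926 genes (10.9%); among the 4854 genes of the size rule, these were 1348 and 903. Without LIM1215 parental replicate 3 those counts over all genes were 3544 and 3936.

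Genes named above behaved unequally. EGFR differed by -1.11 in resistant and -2.67 in withdrawal cells. VIL1, GPA33, CXCL1 and STING1 differed by 9.96, 11.46, 10.04 and 8.96 in resistant and by 9.81, 12.42, 10.24 and 7.86 in withdrawal cells. TNS4 and TM4SF1, higher in parental LIM1215, differed by -1.08 and -1.62 in resistant cells (adjusted p of the change 6.4e-12 and 1.9e-09) and by 7.32 and 3.96 after withdrawal. PRRX1 differed by -1.20 in resistant cells, against -7.27 in parental cells.

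Resistant arrays also carried NK and leukocyte transcripts: 14 of 20 such markers lay above background in resistant LIM1215 cells and 5 in resistant SW48 cells, against 1 in each line in the parental and withdrawal states. The summed level of the panel was 13.36 to 13.66 in resistant LIM1215, 11.47 to 11.96 in resistant SW48, 8.70 to 10.13 in parental LIM1215 and 9.09 to 9.35 in parental SW48 (log2). The leukocyte phosphatase PTPRC, for example, differed by 1.18 in resistant cells and by -5.87 in parental cells. The part of these transcripts in the change of the line difference was not tested.

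**Figure D5:**
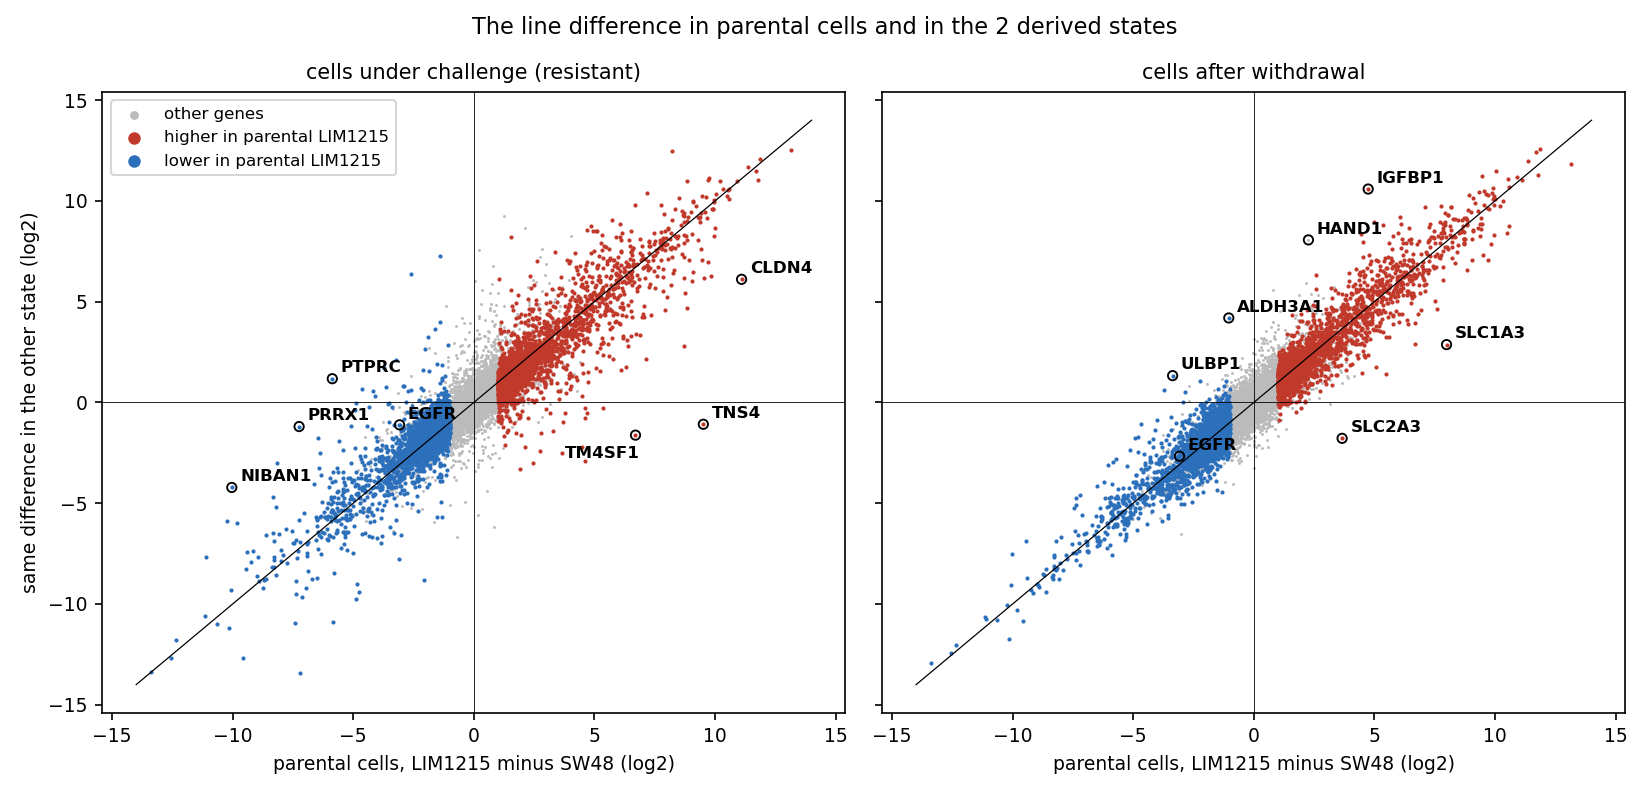
Difference between the lines (LIM1215 minus SW48, log2) in resistant cells (left) and withdrawal cells (right) against the same difference in parental cells, 1 point per gene, with 3 arrays per line and state; red and blue mark genes higher or lower in parental LIM1215 by the size rule, and the diagonal marks an equal difference. Both panels share the parental arrays; points in the withdrawal panel lie closer to the diagonal, and SLC2A3, ULBP1 and ALDH3A1 lie on the other side of 0.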

How the data were processed

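The deposited series values hold the authors' processed values, read here as log2 intensities of probe sets; the software and normalization that made them were not stated in the labels or other sources used. The 6 parental arrays were quantile-normalized together over all 24351 probe sets with limma 3.58.1 in R 4.3.3, which assumes 1 distribution of values in both lines. Of 21448 transcript probe sets, 17709 matched 1 gene by Entrez identifier and 3739 were not named; the brightest probe set stood for each of 20 genes with several, leaving 17687 genes. A mean per line was fitted (lmFit, eBayes; two-sided; 4 residual and 3.36 prior degrees of freedom), with Benjamini-Hochberg adjustment over all genes. The precision is limited by 3 arrays per line. A group mean under the average 95th percentile of its arrays' negative controls was called near background; a fold against it is a lower bound ("at least"), with each dim array raised to its own background. On simulated data with 100 genes changed 2-fold and 100 changed 4-fold, 41 and 78 were recovered with 8 false calls. These were few among 17687 genes, whereas 55.8% of genes passed in the data, so the recovered shares do not carry over. With so few changed genes the simulation also could not probe the assumption of 1 distribution of values.

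Resistant and withdrawal arrays entered a second fit on 18 arrays (12 residual degrees of freedom). The comparison, its lists and members were chosen with earlier results of these data known. Genes named in the text were drawn, not all of them printed, from EGFR, the 15 largest differences in each direction, the 4 largest per list of 49 lists (with further members of ErbB, MAPK, HLA, NK-ligand, death-receptor, mismatch-repair, WNT and glucocorticoid lists), the 10 largest departures of LIM1215 replicate 3, the 5 largest changes of the line difference in each direction, and the cell type markers. Outside that rule, CDX2 and CDH1 (markers given with their values), MEIS2, KLF4, DPP4, KLK5, KLK7, HOXB7, HOXB9, OAS3, EPSTI1, DDX60, ISG15, FADS2, STARD4, SQLE, SCD, ELOVL6, ACACA, PMVK, HK2 and MKI67 were chosen after their values were seen. Replicate numbers do not pair the samples: deviations of arrays with the same number correlated at 0.020, -0.000 and 0.026. Alternatives are given in the closing section. Figures used Python 3.11.15, pandas 2.3.3, numpy 2.4.6 and matplotlib 3.10.9.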

Additional observations from a re-analysis of the deposited data

Results flagged for a closer look

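The difference between LIM1215 and SW48 was not the same in withdrawal and parental cells for the 5 genes in each direction with the largest called change. Values are the withdrawal difference minus the parental difference (LIM1215 minus SW48, log2), from the interaction term of the fit on 18 arrays. IGFBP1, which binds insulin-like growth factors, gave 5.85 (limma adjusted p = 0.017), the homeobox factor HAND1 5.80, the aldehyde dehydrogenase ALDH3A1 5.23, the collagenase MMP1 4.77 and the NKG2D ligand ULBP1 4.70. The glucose transporter SLC2A3 gave -5.44, the glutamate transporter SLC1A3 -5.12, GPRC5B -4.08, the desmosomal cadherin DSG3 -3.51 and PCP4 -3.30. For ALDH3A1 the line difference was -1.04 in parental and 4.19 in withdrawal cells, and for SLC2A3 3.67 and -1.78. IGFBP1 and ULBP1 read higher on LIM1215 parental replicate 3 than on the others, at 11.54 and 10.47, and the part of that array in their change was not tested.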

How the results depend on the processing

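Of 367 named genes, 297 passed with all 6 arrays, and 255 of these passed with the same sign in each of the 19 alternatives that gave them a value. The count of 9863 calls ranged from 8642 to 10401 when 1 replicate was left out, with 3039 to 3177 genes 2-fold or more higher and 3211 to 3298 lower, and EGFR from -3.15 to -2.99. With the replicate number as a replicate block, which the data do not bear out as a pairing, 9411 genes passed and EGFR differed by -3.09 (limma adjusted p = 6.28e-05). A filter on dim genes, which tests fewer genes, gave 6282 calls, 1933 higher and 2106 lower by 2-fold. The scaling moved the split: quantile normalization gave 3135 higher and 3262 lower by 2-fold, median centring alone 2706 and 5356, and centring with interquartile scaling 2611 and 4977. Those scalings moved the median of all genes to -0.50 and -0.46, from -0.05. Reversed were CALR (-1.07 with centring, -1.44 with interquartile scaling), PDIA3 (-0.45 and -0.77), CTNNB1 (-0.16 and -0.46), MT2A (-1.08 and -1.46), SCNN1G (-0.0552 with centring) and RPL36A (-0.0687 with interquartile scaling); the cause was not tested. Without LIM1215 parental replicate 3, 3936 genes changed their line difference between withdrawal and parental cells, against 1926 with it, and 3544 against 2714 between resistant and parental cells. The single-clone origin, the medium, the scale set within each line and the line itself cannot be told apart, and 1 array (LIM1215 replicate 3) widens the error of the interferon and stress genes.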

Other observations

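Grouped by chromosome, the line difference was centred near 0 except on 2 chromosomes. The median difference (LIM1215 minus SW48, log2, without replicate 3 in brackets) was -0.50 (-0.45) over the 800 genes of chromosome 7 and -0.50 (-0.52) over the 551 genes of chromosome 14, against -0.22 to 0.18 over each of the other autosomes. By the size rule 84 genes of chromosome 7 were higher and 175 lower in LIM1215, and on chromosome 14 these were 56 and 122. Copy number was not measured, and its part in these medians was not tested.

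Enteroendocrine and neuronal genes were near background in both lines for 18 of 21 listed; the 3 others were higher in LIM1215, led by CPE, a peptide hormone carboxypeptidase, at 8.70, 8.50 and 11.54 in LIM1215 and 2.56, 2.52 and 2.34 in SW48. Of 17 Eph receptors and ephrins, 10 of them above background, 4 were higher and 3 lower by the size rule (3 and 3 without replicate 3). Among them were EFNB1 at 3.43-fold higher and EPHB4 at 3.66-fold lower. Of 17 complement genes, 2 were higher and 1 lower, below the shares of 13.9% and 13.6% over all genes. The higher ones included CD46, which protects cells from complement (6.27-fold higher). Of 17 NRF2 targets, 6 were higher and 3 lower: HMOX1, the haem oxygenase, was at least 1.74-fold higher and the sulfiredoxin SRXN1 5.5-fold lower. Of 15 p53 targets, all above background, 5 were higher and 3 lower by the size rule, and 4 and 3 without replicate 3. By the test alone 5 were higher and 7 lower, and the median difference was -0.435, so the list had no clear direction. GDF15 was 6.84-fold higher and TNFRSF10B 2.63-fold lower in LIM1215.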
